A study of Mus musculus with 6 samples.

Results

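The genes described here are 38 genes of white and brown adipocytes, measured in RNA of mouse aortas from which the adventitial layer had been removed. They were chosen by symbol, as genes of adipokines, lipid droplets, fat uptake and storage, lipolysis and heat production, and all 38 had a row in the table of 55487 genes. Of these, 32 had enough counts to be tested among 16565 tested genes. The other 6 (Lep, Aqp7, Adrb3, Elovl3, Cox8b and Cox7a1) are given as counts.

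Fat lies against the outside of the aorta, where it is called perivascular adipose tissue. White adipocytes hold a single large lipid droplet, release hormones and store triglyceride, whereas brown adipocytes hold many small droplets and burn fatty acids to make heat through the uncoupling protein UCP1. In mice the fat around the thoracic aorta is largely of the brown type and that around the abdominal aorta is mixed or white. Both kinds of cell depend on the nuclear receptor PPARγ. PRDM16, the protein whose gene was deleted here, is known for holding fat cells in the brown programme.

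Aortas came from 3 control and 3 Prdm16 iSM KO male mice of a C57BL/6 background, with 1 library per mouse. All 6 mice carried Myh11-CreERT2, a transgene on the Y chromosome that drives a tamoxifen-activated Cre in smooth muscle, and all received 1 mg of tamoxifen a day for 10 days from 8 weeks of age, followed by 2 weeks without drug and another 60 days. The iSM KO mice were Prdm16 F/F, with exon 9 floxed, and the controls were Prdm16 W/W, which the labels call WT. Whether the driver acted in any adipocyte was not tested here. The adventitial layer had been stripped off under a stereoscope before RNA was extracted. Neither the stretch of aorta taken nor how much fat remained on each piece is given in the sources used here.

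Library totals ran from 24911609 counts in control 3 to 40460467 in iSM KO 1. Levels are given in CPM, counts scaled to 1000000 per library after TMM normalization. Prdm16, counted over the whole gene and not over exon 9 alone, had 182.9, 223.0 and 178.5 CPM in controls 1 to 3 and 93.8, 112.7 and 79.8 CPM in iSM KO 1 to 3. The groups did not overlap, and the log2 fold change (iSM KO over control, as throughout) was -1.03 with an SE of 0.14 (edgeR adjusted p = 0.00265). Smooth muscle markers summed to between 25764 and 30416 CPM in every library, so the tissue carried the markers of its label. The 38 adipocyte genes took 0.114%, 0.166% and 0.140% of the counts of controls 1 to 3 and 0.104%, 0.108% and 0.111% of those of iSM KO 1 to 3.

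Adipokine, lipid droplet and fat uptake genes made up most of the falls in the iSM KO aortas, and the pair that rose were regulators, Pparg and Ppargc1a. Of the 32 tested genes, 17 fell and 2 rose at an edgeR adjusted p (FDR) under 0.05, where 3.3% and 4.26% of all tested genes fell and rose. With a fold change over 2 as well, 14 fell and 1 rose, against 1.38% and 1.4% of all tested genes. The median log2 fold change was -1.42, beside -0.01 over all tested genes. A gene was tested when its count was over 10 in every library of at least 1 group, and Adipoq, Retn and Plin5 got in through the controls alone and Ucp1 through the iSM KO libraries alone. Among the 28 genes that passed in both groups, 15 fell, 2 rose and the median was -1.05. In bulk RNA, fewer adipocytes on a piece of tissue and less RNA per adipocyte cannot be told apart. Calls also changed when 1 library was left out. Of the 19 calls, 15 were lost without iSM KO 2, 13 without iSM KO 1, 9 without control 3, 6 without control 2, 6 without iSM KO 3 and 1 without control 1. Calls over all genes dropped too: the 547 that fell became 203 without iSM KO 2 and 241 without iSM KO 1. The 705 that rose became 313 and 383. Only Fabp4, Lpl, Slc2a4 and Pparg passed in all 6 of these fits, although each of the 17 genes that fell kept a negative fold change in every one.

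**Figure D1:**
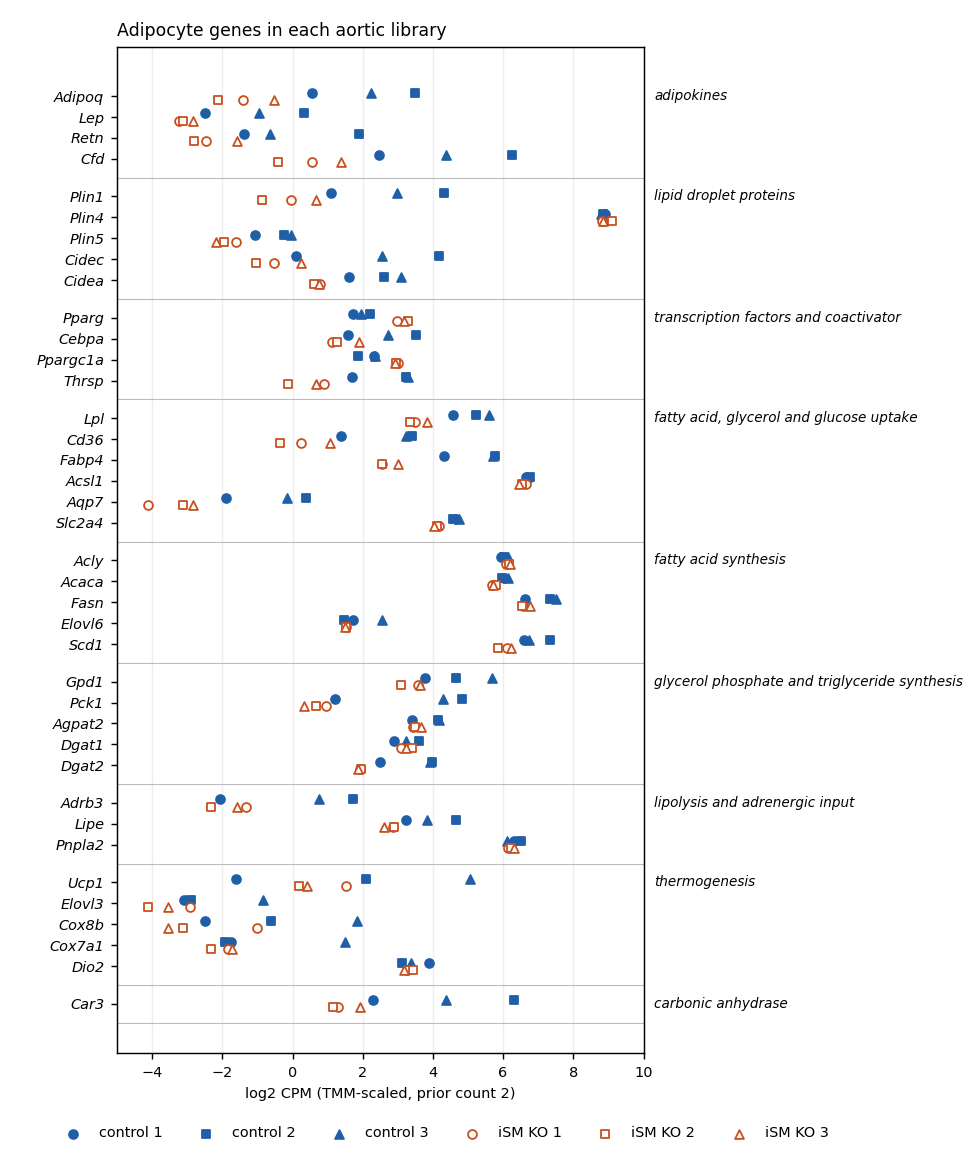
Level of each of the 38 genes in each library, as log2 CPM with a prior count of 2, grouped by what the genes do. Filled blue symbols are controls 1 (circle), 2 (square) and 3 (triangle), and open orange symbols are the iSM KO libraries with the same numbers; the blue symbols of Cfd, Car3 and Ucp1 spread widely while those of Plin4, Acly and Pnpla2 nearly coincide.

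The promoter sequences below show what the regulatory end of 3 of these genes looks like: Adipoq, highest in control 2, Ucp1, highest in control 3, and Pparg, which rose where Adipoq fell. They are RefSeq sequences on GRCm38.p6, each the 250 bases before an annotated start, printed 5′ to 3′ on the gene's plus strand. Capitals mark AGGTCA (the core element that nuclear receptors bind), the CCAAT box and the TATA box (TATAAA), as written or as the reverse complement, since both strands were searched.
Adipoq, chr16:23146286-23146535: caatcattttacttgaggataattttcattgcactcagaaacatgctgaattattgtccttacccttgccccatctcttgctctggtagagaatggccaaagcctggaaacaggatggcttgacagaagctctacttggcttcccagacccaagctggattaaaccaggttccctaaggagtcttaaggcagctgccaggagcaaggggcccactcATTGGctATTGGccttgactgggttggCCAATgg
Ucp1, chr8:83290098-83290347: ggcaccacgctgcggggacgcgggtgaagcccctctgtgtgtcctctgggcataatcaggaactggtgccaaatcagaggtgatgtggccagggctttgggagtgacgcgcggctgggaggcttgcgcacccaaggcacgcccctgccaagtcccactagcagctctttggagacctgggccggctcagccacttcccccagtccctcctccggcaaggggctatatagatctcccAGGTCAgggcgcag
Pparg, 1 of its 3 starts, chr6:115362099-115362348: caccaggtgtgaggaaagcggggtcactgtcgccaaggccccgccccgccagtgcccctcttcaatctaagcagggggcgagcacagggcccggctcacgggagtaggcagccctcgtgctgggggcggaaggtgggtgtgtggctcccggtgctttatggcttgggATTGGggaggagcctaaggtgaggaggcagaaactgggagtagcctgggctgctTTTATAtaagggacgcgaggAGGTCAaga
Adipoq held 3 CCAAT matches, the farthest beginning 34 bases before the start. Ucp1 held a single AGGTCA beginning 14 bases before the start, and the Pparg stretch held 1 of each of the 3, with its AGGTCA beginning 9 bases before the start. For 27 of the 38 genes RefSeq windows were at hand, 34 windows of 300 bases in all (250 before and 50 after the start), some of them overlapping. AGGTCA was in 29.4% of these, in Acly, Aqp7, Cd36, Elovl6, Plin5, Pparg and Ucp1, and in 16.3% of all 32851 windows. CCAAT was in 32.4% of the 34 and 37.4% of all, and TATAAA in 11.8% and 13.6%. The direct repeat of AGGTCA with 1 base between the copies, which contains the single element and is the form PPARγ pairs favour, was in 0 of the 34 and 0.0396% of all. A match is letters in a window and not a bound site. Adrb3, Car3, Cidea, Dgat1, Dgat2, Elovl3, Fabp4, Gpd1, Lpl, Scd1 and Slc2a4 were without an entry.

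Adipokines, the proteins that fat cells release into blood, gave 2 falls among the 3 that were tested, of which only Cfd passed the count filter in both groups. Cfd encodes adipsin, a complement protease secreted by fat. Its level was 5.49, 76.4 and 20.5 CPM in controls 1 to 3 and 1.40, 0.688 and 2.57 CPM in iSM KO 1 to 3. No iSM KO library reached the lowest control, and Cfd fell by 4.46 on the log2 scale (SE 0.90, edgeR adjusted p = 0.0191). Adipoq, at chr16:23146536-23158028, encodes adiponectin, the insulin-sensitising hormone made almost solely by adipocytes. It measured 1.40, 11.1 and 4.61 CPM in controls and 0.319, 0.172 and 0.630 CPM in iSM KO libraries. The groups were again apart and Adipoq fell by 3.93 (SE 0.75, edgeR adjusted p = 0.0147). Without iSM KO 1 or iSM KO 2 the adjusted p was 0.0610 and 0.0711 for Adipoq and 0.0746 and 0.0885 for Cfd.

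Retn, the gene of resistin, had 0.328, 3.67 and 0.587 CPM in controls and 0.123, 0.0860 and 0.274 CPM in iSM KO libraries. Its groups did not overlap either, but with control 2 at 6.25 times control 3 its log2 difference of -3.26 (SE 0.94) did not pass (edgeR adjusted p = 0.0719). It passed without control 1 (0.0369) and with DESeq2 (0.00105). Lep, the gene of the satiety hormone leptin, had 4, 46 and 11 counts in controls and 2, 2 and 3 in iSM KO libraries, too few to be tested. All 4 adipokine genes were highest in control 2 and lowest, among controls, in control 1.

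Of the 5 genes of lipid droplet proteins, 4 fell. Perilipin 1, the coat protein of the adipocyte droplet that gates lipolysis, is encoded by Plin1, which had 2.09, 19.8 and 7.88 CPM in controls and 0.908, 0.487 and 1.53 CPM in iSM KO libraries. Plin1 fell by 3.35 (SE 0.74, edgeR adjusted p = 0.0277). Cidec, whose product fuses droplets into the single large one of white fat, measured 1.01, 17.9 and 5.83 CPM against 0.638, 0.430 and 1.12 CPM. Here iSM KO 3 lay above control 1, so the groups overlapped, and the log2 fold change of -3.50 (SE 0.88) passed narrowly (edgeR adjusted p = 0.0438).

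Cidea, a relative that is much used as a brown and beige marker, ran at 3.01, 5.98 and 8.51 CPM in controls and 1.67, 1.46 and 1.62 CPM in iSM KO libraries. Unlike Plin1 and Cidec it was highest in control 3, and it fell by 1.87 (SE 0.34, edgeR adjusted p = 0.0118). Plin5, the perilipin of tissues that oxidise fat, was scarce at 0.418, 0.781 and 0.922 CPM against 0.270, 0.201 and 0.164 CPM, and fell by 1.70 (SE 0.42, edgeR adjusted p = 0.0422); with DESeq2 its adjusted p was 0.0508. Plin4 coats small new droplets and is also made in striated muscle. At 478, 461 and 443 CPM in controls and 454, 546 and 462 CPM in iSM KO libraries it had the highest level per kilobase of exon among the 38 genes in the controls, 79.7 CPM per kb. Its log2 difference of 0.08 had a 95% interval of -0.14 to 0.30 (edgeR adjusted p = 0.666). In this group the calls of Plin1, Cidec and Plin5 were lost without control 2 (edgeR adjusted p of 0.0531, 0.0945 and 0.0915), control 3 (0.0662, 0.0868 and 0.117), iSM KO 1 (0.0951, 0.138 and 0.0889) and iSM KO 2 (0.114, 0.167 and 0.156). Without iSM KO 3 those of Cidec (0.0713) and Plin5 (0.109) were lost, and Cidea lost its call without iSM KO 2 (0.0618).

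The regulators split. Pparg, at chr6:115360951-115490399, encodes PPARγ, the receptor that switches on the adipocyte programme. It had 3.22, 4.58 and 3.77 CPM in controls and 7.78, 9.71 and 8.95 CPM in iSM KO libraries. Every iSM KO library was above every control, and Pparg rose by 1.19 on the log2 scale (SE 0.17, edgeR adjusted p = 0.00354). Ppargc1a, the gene of PGC-1α, a coactivator that drives mitochondrial and thermogenic genes, had 4.93, 3.59 and 5.03 CPM against 7.97, 7.68 and 7.53 CPM. It rose by 0.78 (SE 0.16, edgeR adjusted p = 0.0192), and without iSM KO 1 or 2 its adjusted p was 0.0774 and 0.0869. Both spread little among controls, with the highest control 1.42 and 1.40 times the lowest. Bulk RNA does not show which cells of the aorta made either, and this was not tested.

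Cebpa, the partner that keeps PPARγ targets on in mature fat cells, went the other way. It ran at 2.96, 11.5 and 6.50 CPM in controls and 2.11, 2.35 and 3.67 CPM in iSM KO libraries. Control 1 lay inside the iSM KO range, and the log2 difference of -1.37 (SE 0.44) did not pass (edgeR adjusted p = 0.0996), though it did without control 1 (0.02004). Thrsp, a nuclear protein gene induced by thyroid hormone in tissues that make fat, had 3.16, 9.32 and 9.64 CPM against 1.79, 0.860 and 1.53 CPM. Thrsp fell by 2.39 (SE 0.43, edgeR adjusted p = 0.0114), with an adjusted p of 0.0529 without iSM KO 2. No overlap with lower values in the iSM KO libraries, as for Thrsp, was seen in 18 of the 32 tested genes and in 13.0% of all tested genes, and no overlap with higher values, as for Pparg and Ppargc1a, in 2 of the 32 and in 15.0% of all.

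Genes that bring fuel into the fat cell held the 3 falls that passed whichever library was left out. Fabp4, at chr3:10204088-10208576, encodes the fatty acid carrier of adipocytes, which capillary endothelium and macrophages also make. It stood at 19.9, 54.6 and 52.4 CPM in controls and 5.82, 5.85 and 7.97 CPM in iSM KO libraries. The groups were well apart, and Fabp4 fell by 2.69 (SE 0.35, edgeR adjusted p = 0.00233). Lpl, the lipase that frees fatty acids from lipoproteins at the capillary wall, measured 23.7, 37.6 and 48.1 CPM against 11.2, 10.1 and 14.1 CPM. Lpl fell by 1.62 (SE 0.24, edgeR adjusted p = 0.00426).

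Slc2a4 encodes GLUT4, the insulin-responsive glucose transporter of fat and muscle, and its levels hardly differed within a group, at 25.02, 23.6 and 26.5 CPM in controls and 18.0, 17.4 and 16.3 CPM in iSM KO libraries. Its fall of 0.54 (SE 0.09) was small but passed (edgeR adjusted p = 0.00794). Cd36, the fatty acid translocase, had 2.54, 10.4 and 9.39 CPM against 1.13, 0.716 and 2.03 CPM. Cd36 fell by 2.52 (SE 0.53, edgeR adjusted p = 0.0232) and lost its call without control 2 (0.0570), control 3 (0.0813), iSM KO 1 (0.0839) or iSM KO 2 (0.0954). Acsl1, which activates fatty acids in many tissues, had 99.7, 109.8 and 103.3 CPM against 101.1, 93.1 and 88.2 CPM, a log2 difference of -0.15 with a 95% interval of -0.33 to 0.04 (edgeR adjusted p = 0.324). Aqp7, the channel through which glycerol leaves adipocytes, had 7, 48 and 20 counts in controls and 0, 2 and 3 in iSM KO libraries.

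**Figure D2:**
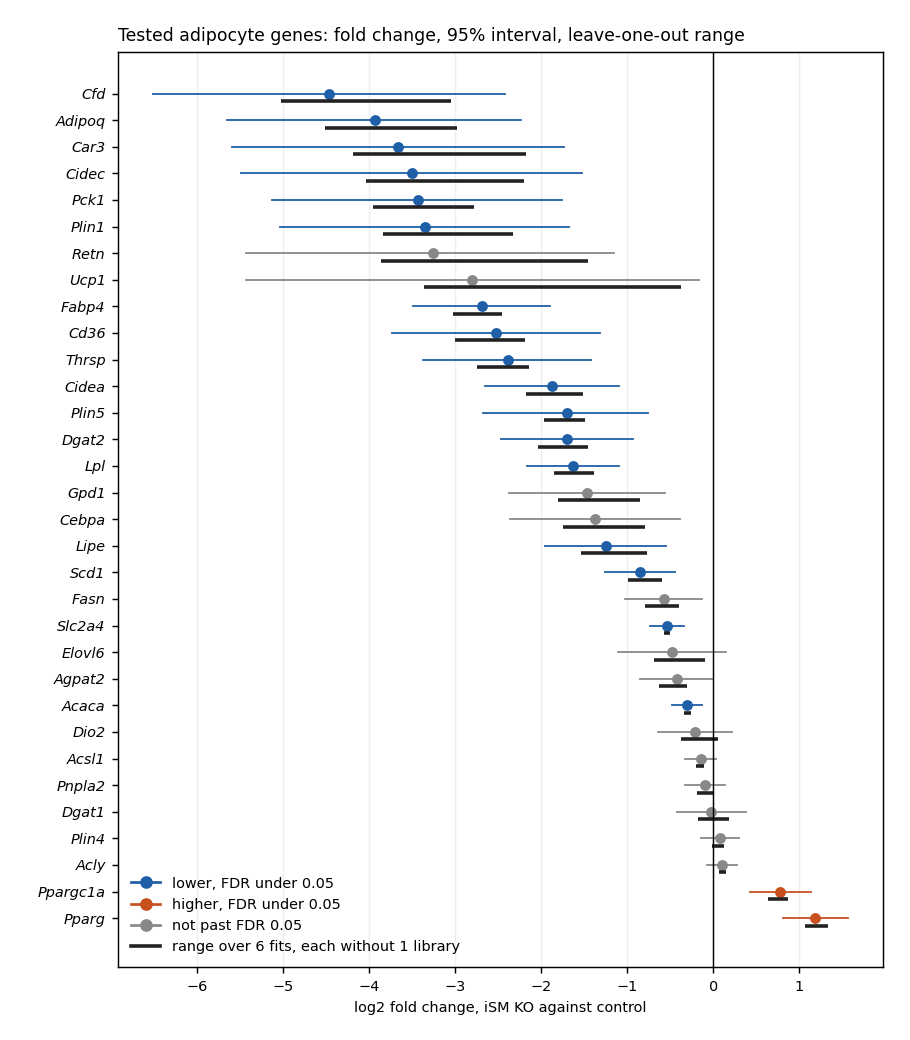
Log2 fold change of the 32 tested genes (iSM KO against control) with its 95% interval from edgeR, ordered from the largest fall, Cfd at -4.46, to the largest rise, Pparg at 1.19. Blue genes fell and orange genes rose at an adjusted p under 0.05, grey genes did not pass, and the black bar under each interval is the range over the 6 fits that each left out 1 library; that of Ucp1 reaches from -3.36 to -0.38.

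Fatty acid synthesis runs in many cells and at a high rate in adipocytes, and 2 of its 5 genes fell, with -0.47 as the median of the 5 log2 fold changes. Scd1, the desaturase that makes oleate, had 96.3, 160.0 and 107.1 CPM in controls and 69.0, 58.2 and 74.2 CPM in iSM KO libraries. No value overlapped, and Scd1 fell by 0.85 (SE 0.18, edgeR adjusted p = 0.0234), with an adjusted p of 0.0695 without iSM KO 1 and 0.106 without iSM KO 2. It shares a stretch of 623 bp at 95% identity or more with its paralog Scd2, and how reads matching both were divided is not stated. Acaca, the acetyl-CoA carboxylase that makes malonyl-CoA, ran at 64.8, 62.6 and 69.8 CPM against 51.4, 55.5 and 52.8 CPM. Its fall of 0.30 (SE 0.07) passed (edgeR adjusted p = 0.0414) but not without control 1 (0.0681), control 3 (0.0814), iSM KO 1 (0.172), iSM KO 2 (0.122) or iSM KO 3 (0.110). Acaca shares 6118 bp with the pseudogene Gm5182, whose own counts ran from 295 to 398 a library.

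Fasn, the fatty acid synthase, had 97.6, 161.7 and 181.9 CPM in controls and 94.8, 92.4 and 108.8 CPM in iSM KO libraries. Control 1 was level with the iSM KO libraries, and the log2 difference of -0.58 (SE 0.20) did not pass (edgeR adjusted p = 0.125), although it did without control 1 (0.00512) and with DESeq2 (0.0212). Elovl6, which lengthens palmitate, had 3.25, 2.73 and 5.83 CPM against 2.80, 2.84 and 2.77 CPM (log2 difference -0.47, SE 0.28, edgeR adjusted p = 0.350). Acly, which supplies cytosolic acetyl-CoA, had 61.9, 65.5 and 70.6 CPM against 67.5, 72.0 and 73.2 CPM, with a log2 difference of 0.10 and a 95% interval of -0.07 to 0.28 (edgeR adjusted p = 0.476).

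Of the genes that build triglyceride, 2 of 5 fell. Pck1 encodes the PEP carboxykinase that fat cells use to make glycerol phosphate when glucose is short. It had 2.24, 28.6 and 19.3 CPM in controls and 1.89, 1.52 and 1.20 CPM in iSM KO libraries. Control 1 was only just above iSM KO 1, and Pck1 fell by 3.43 (SE 0.74, edgeR adjusted p = 0.0256). Dgat2, which adds the last fatty acid, measured 5.55, 15.7 and 15.1 CPM against 3.75, 3.84 and 3.61 CPM and fell by 1.70 (SE 0.34, edgeR adjusted p = 0.0181). The adjusted p of Pck1 and Dgat2 was 0.0776 and 0.0714 without control 3, 0.0762 and 0.0620 without iSM KO 1, and 0.104 and 0.0737 without iSM KO 2. That of Pck1 was also 0.0563 without control 2 and 0.0689 without iSM KO 3.

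Gpd1, the glycerol phosphate dehydrogenase, had 13.6, 25.3 and 51.3 CPM in controls and 11.8, 8.45 and 12.3 CPM in iSM KO libraries. The groups did not overlap, yet the log2 difference of -1.46 (SE 0.40) missed the threshold (edgeR adjusted p = 0.0612) and passed without control 1 (0.0120). Agpat2, which makes phosphatidic acid, had 10.6, 17.6 and 18.0 CPM against 10.8, 11.2 and 12.5 CPM (log2 difference -0.42, SE 0.19, edgeR adjusted p = 0.229), and its adjusted p without control 1 was 0.0169. Dgat1, the other acyltransferase of the last step, had 7.43, 12.0 and 9.27 CPM against 8.44, 10.5 and 9.36 CPM, with a log2 difference of -0.02 and a 95% interval of -0.42 to 0.38 (edgeR adjusted p = 0.959).

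Lipolysis gave 1 call. Lipe, the hormone-sensitive lipase, ran at 9.37, 25.4 and 14.2 CPM in controls and 7.19, 7.42 and 6.05 CPM in iSM KO libraries. It fell by 1.25 (SE 0.31, edgeR adjusted p = 0.0422) and passed in only 1 of the 6 fits, that without control 1 (0.0118), with adjusted p-values of 0.0502 without control 2, 0.0867 without control 3, 0.111 without iSM KO 1, 0.123 without iSM KO 2 and 0.102 without iSM KO 3. Pnpla2, the lipase ATGL that takes the first fatty acid off and works in most tissues, had 79.0, 90.4 and 69.7 CPM against 69.9, 74.6 and 79.3 CPM. Its log2 difference of -0.10 had a 95% interval of -0.33 to 0.14 (edgeR adjusted p = 0.626). Adrb3, the adrenergic receptor through which nerves start lipolysis in rodent fat, had 6, 125 and 39 counts in controls and 14, 5 and 10 in iSM KO libraries. Control 1 lay within the iSM KO range, and Adrb3 was not tested. Lipe and Adrb3 overlap exons of 4732471J01Rik and Gm45470 on the opposite strand over 918 and 839 bp. Whether counting used strand is not stated, and those genes had 146 and 28 counts over all libraries.

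Heat-making genes were set apart by 1 library. Ucp1, at chr8:83290352-83298452, lets protons leak back into brown fat mitochondria and defines the brown adipocyte. It had 0.269, 4.22 and 33.0 CPM in controls 1 to 3 and 2.85, 1.09 and 1.29 CPM in iSM KO 1 to 3. Control 3 was 123 times control 1, and every iSM KO library lay above control 1. The log2 difference of -2.80 had an SE of 1.16 and did not pass (edgeR adjusted p = 0.199). It was -0.38 without control 3 (adjusted p = 0.855), and it passed without control 1 (0.0489).

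The 3 genes most tied to brown fat beside Ucp1 were scarce but shared that library. Cox8b, a cytochrome oxidase subunit of brown fat and muscle, had 4, 23 and 84 counts in controls and 18, 2 and 1 in iSM KO libraries. Cox7a1, a subunit of the same kind, had 8, 8 and 66 counts against 9, 5 and 9. Elovl3, which lengthens fatty acids when brown fat is cooled, had 2, 3 and 12 counts against 3, 0 and 1. Control 3 was the highest of all 6 libraries for each, although its total was the smallest. Dio2, the deiodinase that activates thyroid hormone in brown fat, did not share it, at 14.9, 8.72 and 10.2 CPM in controls and 9.54, 10.7 and 8.98 CPM in iSM KO libraries (log2 difference -0.21, SE 0.19, edgeR adjusted p = 0.549).

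Car3 encodes carbonic anhydrase 3, which makes up much of the cytosolic protein of rodent white fat. It had 4.81, 79.0 and 20.6 CPM in controls and 2.40, 2.15 and 3.75 CPM in iSM KO libraries. All iSM KO values were below control 1, and Car3 fell by 3.66 (SE 0.85, edgeR adjusted p = 0.0337). Its adjusted p was 0.0641 without control 3, 0.114 without iSM KO 1, 0.136 without iSM KO 2 and 0.0649 without iSM KO 3.

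The count filter changed calls at low and high levels alike. With no filter, where 2.81% of 30712 genes fell, the edgeR adjusted p was 0.00780 for Lep, 9.92e-04 for Aqp7, 0.00365 for Adrb3, 0.0255 for Cox8b, 0.0508 for Cox7a1 and 0.329 for Elovl3. The same fit put Ucp1 at 0.0111, against 0.199 with the filter. It also put Retn (0.00155), Cebpa (0.00337), Gpd1 (2.56e-04) and Fasn (0.0107) past the threshold and Plin5 (0.0516) and Acaca (0.0644) short of it. In that fit 24 of the 38 genes fell and 2 rose, where 914 of all 30712 genes rose. The 24 include Lep, Aqp7, Adrb3 and Cox8b, which the filter had left out for low counts. The fold changes of Ucp1, Retn, Cebpa, Gpd1, Fasn, Plin5 and Acaca hardly moved, and their SEs did. Ucp1 went from -2.80 (SE 1.16) to -2.79 (SE 0.69), and Plin5 stayed at -1.70 while its SE rose from 0.42 to 0.53. The added calls of Ucp1, Retn, Cebpa, Gpd1 and Fasn thus came with smaller SEs and not with larger falls. Why the SEs moved was not tested. No fold change is given for Lep and Aqp7, whose iSM KO libraries held at most 3 counts each.

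The controls differed among themselves far more in these genes than in others. Over the 32 tested genes the median range of log2 CPM across the 3 controls was 1.25, beside 0.35 over all tested genes, and across the iSM KO libraries it was 0.33, beside 0.25. The control range exceeded the iSM KO range for 30 of the 32 genes (93.8%) and for 65.3% of all tested genes. It was above 1 log2 unit for 19 genes (59.4%), beside 10.6% of all, and above 2 for 9 genes (28.1%), beside 1.12%. The genes share mice and libraries, and many are made in the same cells, so they are no independent witnesses of this spread.

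Control 1 was the lowest control for 30 of the 38 genes. Among the tested ones it was lowest for 25 (78.1%), beside 32.9% of all tested genes. Control 2 was the highest for 17 tested genes (53.1%, beside 32.1% of all) and control 3 for 13 (40.6%, beside 35.3%). The full order of control 2, control 3, control 1 held in 16 of 32, beside 15.0% of all,, and the order of control 3, control 2, control 1 in 9 (28.1%, beside 17.9%).

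Counting all 38 genes, control 2 was the highest control for 20, control 3 for 16 and control 1 for 2. Control 2 led for all 4 adipokines and for Plin1, Cidec, Car3 and Adrb3 among others, with Cfd 3.73 times and Car3 3.84 times its level in control 3. Of the 5 thermogenic genes, control 3 led for Ucp1, Cox8b, Cox7a1 and Elovl3, and control 1 for Dio2, with Ucp1 at 33.0 CPM in control 3 and 4.22 CPM in control 2. Control 3 also led for 12 genes of other roles, namely Cidea, Plin5, Ppargc1a, Thrsp, Lpl, Slc2a4, Acly, Acaca, Fasn, Elovl6, Gpd1 and Agpat2. Fabp4, which both kinds of fat cell make, was nearly equal in them at 54.6 and 52.4 CPM. These are descriptions of single libraries, with no replicate of each, and the genes named were picked with their values in view.

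**Figure D3:**
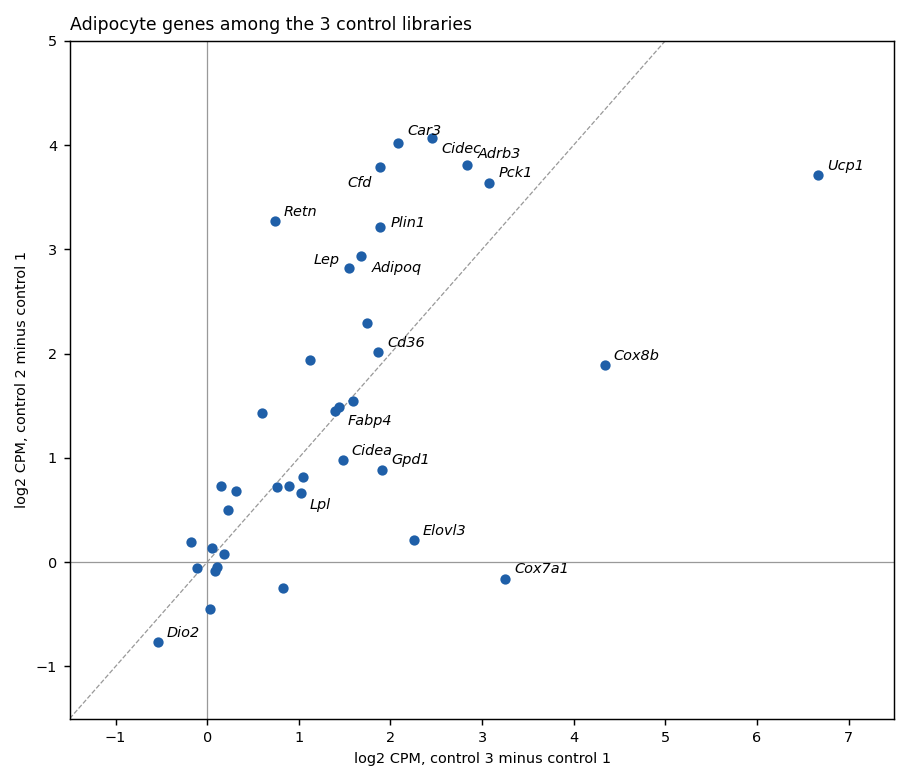
Each of the 38 genes among the controls: the x axis is log2 CPM of control 3 minus that of control 1, the y axis log2 CPM of control 2 minus that of control 1 (prior count 2), and the dashed line marks equal levels in controls 2 and 3. Car3, Cfd, Cidec and Retn lie above the line and Ucp1, Cox8b, Cox7a1 and Elovl3 below it, while Plin4, Acly, Acaca and Slc2a4 sit near the origin.

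Summed by role, the adipokines had 7.34, 92.4 and 26.1 CPM in controls and 1.89, 1.003 and 3.56 CPM in iSM KO libraries. The 5 thermogenic genes summed to 15.6, 13.8 and 50.1 CPM against 13.1, 12.0 and 10.6 CPM. Thus the adipokine sum was higher in every control than in any iSM KO library and the thermogenic sum was also higher in every control, but by little outside control 3. Dio2 made most of the thermogenic sum in controls 1 and 2, at 14.9 and 8.72 CPM. It also did so in iSM KO 1 to 3, at 9.54, 10.7 and 8.98 CPM. Ucp1 ran the other way in control 1, at 0.269 CPM beside 2.85, 1.09 and 1.29 CPM in iSM KO 1 to 3. The place of control 1 above the iSM KO sums was thus that of Dio2 and not of Ucp1.

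A wider list gave the other genes of the adipocyte. This list and those that follow were also chosen with earlier results of these data known. Of these 36 genes, 31 were tested, 5 of them through the controls alone (Adig, Acvr1c, Pnpla3, Slc36a2 and Trarg1). Of the 31, 9 fell (29.0%, beside 3.3% of all tested genes) and 1 rose (beside 4.26% of all), with a median log2 fold change of -0.36. Acvr1c, Slc36a2 and Trarg1 were among the falls, so the 29.0% includes genes tested only because their control counts were high. The other falls were among the 26 genes that passed the filter in both groups. Trarg1, which helps GLUT4 traffic, was highest in control 2, with 0.448, 5.62 and 1.30 CPM in controls and 0.294, 0.143 and 0.0821 CPM in iSM KO libraries (log2 fold change -3.80, SE 0.93, edgeR adjusted p = 0.0406). Angptl4, a secreted inhibitor of lipoprotein lipase, had 2.12, 3.38 and 2.73 CPM against 0.393, 1.17 and 0.684 CPM, and its controls were close together (log2 fold change -1.88, SE 0.38, edgeR adjusted p = 0.0190). The others that fell were the amino acid transporter Slc36a2 (log2 fold change -2.30), the activin-type receptor Acvr1c (-2.0), Mlxipl, the sugar-sensing factor ChREBP (-1.46), the cAMP phosphodiesterase Pde3b (-0.91), the synuclein Sncg (-0.64), the phosphatidate phosphatase Lpin1 (-0.32) and the lipogenic factor Srebf1 (-0.31). Npr3, the clearance receptor for natriuretic peptides, rose by 0.67 (SE 0.09, edgeR adjusted p = 0.00294).

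Calls in this list also changed when 1 library was left out, as they did over all genes: without iSM KO 2 the count that fell was 1, and without control 3 or iSM KO 1 it was 2 in each case. Npr3 kept its call in all 6 fits. Angptl4 lost it without control 2 (edgeR adjusted p = 0.0520) and control 3 (0.0590), and without iSM KO 2 the adjusted p was 0.150 for Trarg1, 0.145 for Slc36a2, 0.0968 for Acvr1c, 0.0816 for Mlxipl, 0.0971 for Pde3b, 0.114 for Sncg, 0.0927 for Lpin1 and 0.136 for Srebf1. The 6 genes of this list with the highest mean level were Aoc3, Insr, Mgll, Srebf1, Irs1 and Nrip1, and of these Srebf1 alone passed. Aoc3, a surface amine oxidase made in both fat and smooth muscle, had a log2 difference of -0.09 (SE 0.12, edgeR adjusted p = 0.679). Among the untested genes, Mrap, an adaptor of the ACTH receptor, had 1, 43 and 8 counts in controls and 1, 3 and 5 in iSM KO libraries, and Lgals12, a galectin of lipid droplets, had 10, 68 and 2 against 2, 5 and 7. Control 2 was the highest for both, but control 3 was the lowest control for Lgals12. Both were picked with their values in view.

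Of 40 brown and beige genes, 31 were tested, Esrrg, Bmp8b and Clstn3 of them through 1 group alone, and 3 fell (9.68%, beside 3.3% of all tested genes) and 1 rose (beside 4.26% of all), with a median log2 fold change of -0.14. The share that rose was no larger than that over all genes in either list. Cpt1b, the gatekeeper of mitochondrial fatty acid import in muscle and brown fat, had 2.66, 3.43 and 5.70 CPM in controls and 0.883, 1.32 and 0.903 CPM in iSM KO libraries. It fell by 1.91 (SE 0.33, edgeR adjusted p = 0.00856) and passed without any 1 library. Eva1a (log2 fold change -1.20, edgeR adjusted p = 0.0190) and the fatty acid transporter Slc27a1 (-0.39, 0.0496) fell as well, but lost the call without control 3 (0.0544 and 0.123), iSM KO 1 (0.0771 and 0.165) or iSM KO 2 (0.0505 and 0.180), and Slc27a1 also without control 2 (0.0879) or iSM KO 3 (0.0765). P2rx5, an ATP-gated channel used as a surface marker of brown fat, rose from 8.39, 9.81 and 10.6 CPM to 18.5, 17.5 and 14.9 CPM (log2 fold change 0.82, SE 0.13, edgeR adjusted p = 0.00555) and passed in all 6 fits. Which cells of the aorta made P2rx5 RNA was not tested.

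The most abundant of these genes belong to mitochondrial fat oxidation and lipid handling, namely Acot11, Acadvl, Acadl, Hadhb, Etfdh and Slc27a1, and only Slc27a1 passed. Acadvl, the dehydrogenase of very long chains, had 40.9, 50.1 and 62.9 CPM in controls and 46.9, 46.8 and 47.6 CPM in iSM KO libraries. Otop1, a proton channel of brown fat, had 8, 11 and 45 counts against 8, 0 and 5, and Slc27a2, a fatty acid transporter, 8, 9 and 43 against 11, 4 and 16; both were highest in control 3 and untested. Zic1 and Lhx8, developmental factors of the classical brown depots, had at most 4 and 5 counts in any library.

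Markers of other cell types were summed beside the adipocyte genes. The 10 fibroblast markers summed to 478, 284 and 349 CPM in controls and 212, 243 and 304 CPM in iSM KO libraries, and 1 of 10 fell, Clec3b, by 1.56 (edgeR adjusted p = 0.0348, and 0.101, 0.0939, 0.114 and 0.133 without control 1, control 3, iSM KO 1 and iSM KO 2). At an unadjusted p under 0.05 there were 7 of 10, and with DESeq2 3 passed (Pi16, Clec3b and Serpinf1). Log2 differences were negative for 9 of the 10, with a median of -0.68. Beside this and the lists that follow, 3.3% of all 16565 tested genes fell and 4.26% rose with edgeR. With DESeq2 4.64% fell, and 8679 of the 16565 log2 differences were negative. The share of all genes at an unadjusted p under 0.05 was not counted. Marker counts at that p, here and in the lists below, therefore cannot be weighed against all genes. Control 1, the lowest control for most adipocyte genes, had the highest fibroblast sum. Endothelial markers summed to 894, 1063 and 513 CPM against 264, 474 and 804 CPM, and macrophage markers to 46.4, 41.4 and 41.8 CPM against 16.6, 17.5 and 49.2 CPM. With edgeR 0 of 9 tested endothelial and 0 of 10 macrophage markers passed, although all 19 had a negative log2 difference; at an unadjusted p under 0.05 there were 1 and 2, and with DESeq2 0 and 1 (Lyz2). In iSM KO 3 the fibroblast and endothelial sums lay within the range of the controls and the macrophage sum above it, while its adipokine sum of 3.56 CPM was below all controls.

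Of 8 mesothelial markers only Krt18 was tested, and it fell by 1.79 (edgeR adjusted p = 0.00201). Their sum was 11.8, 12.4 and 10.7 CPM in controls and 2.31, 3.44 and 9.20 CPM in iSM KO libraries. Blood and lymphoid markers ran from 45.5 to 103 CPM in controls and from 8.28 to 138 CPM in iSM KO libraries, and Ighm fell by 1.83 (edgeR adjusted p = 0.0329, and 0.0749, 0.0729, 0.114 and 0.134 without control 2, control 3, iSM KO 1 and iSM KO 2). Schwann cell and nerve markers summed to 495 to 583 CPM in controls and 635 to 636 CPM in iSM KO libraries, 0 of 7 passed with edgeR (2 at an unadjusted p under 0.05, and 1 with DESeq2, Ncam1), and Dbh was at 0 in every library. Smooth muscle markers Des and Myocd rose by 1.24 and 0.65 (edgeR adjusted p = 0.00381 and 0.0109), and the striated muscle markers Actn2 and Ryr2 by 0.78 and 0.50 (0.0154 and 0.0459). Of these 4, Des passed in all 6 fits, Myocd had an adjusted p of 0.0510 without iSM KO 1, Actn2 0.0762 and 0.0871 without iSM KO 1 and 2, and Ryr2 0.126 and 0.115 without controls 1 and 3 and 0.137 and 0.195 without iSM KO 1 and 2. The part of any of these cells in the adipocyte values was not tested.

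**Figure D4:**
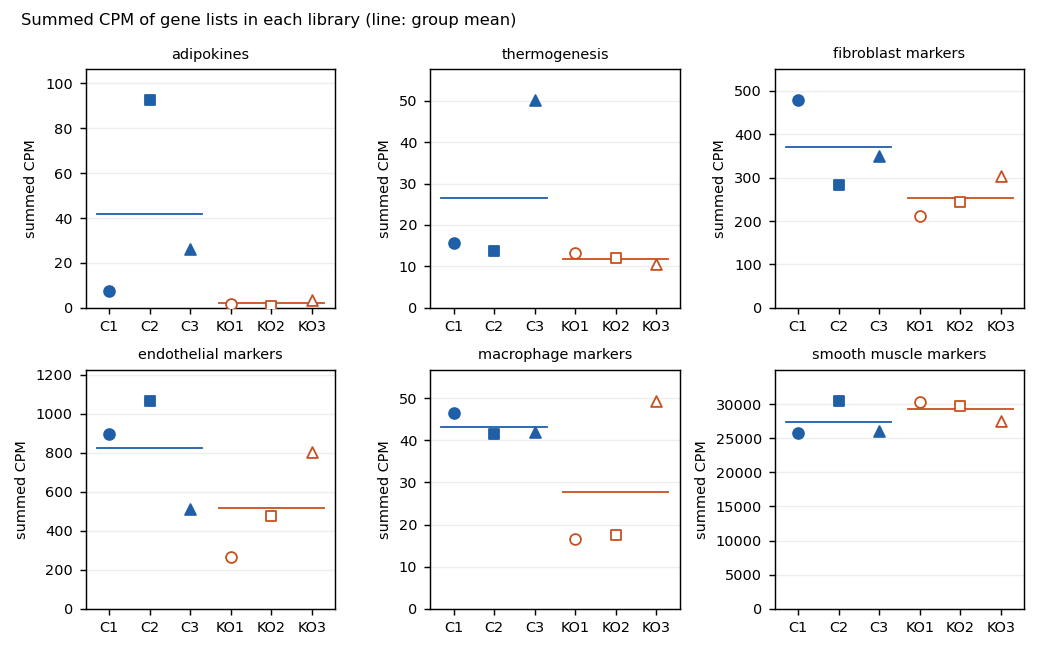
Summed CPM in each library of the adipokine and thermogenic genes and of fibroblast, endothelial, macrophage and smooth muscle markers, with blue filled symbols for controls 1 to 3 (C1 to C3), orange open symbols for iSM KO 1 to 3 (KO1 to KO3), a line at each group mean and every axis starting at 0. Adipokines peak in control 2 at 92.4 CPM and thermogenic genes in control 3 at 50.1 CPM, whereas the macrophage sum is highest in iSM KO 3.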

How the data were processed

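Aortic total RNA depleted of ribosomal RNA was sequenced in 6 libraries, 3 per group. The authors deposited estimated counts per gene, made with DRAGEN (bcl2fastq for base calls) on mm10 per the labels and Ensembl release 101 per the methods, with no normalization; how reads matching several genes were shared is not stated. Totals were 24911609 to 40460467 per library, and low counts are least precise in control 3.

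Counts were rounded. Genes over 10 counts in all libraries of 1 group were tested with edgeR 4.0.16 (R 4.3.3; TMM, glmQLFit, glmQLFTest, no covariate, two-sided) with Benjamini-Hochberg adjustment over all 16565 genes. Log2 CPM used a prior count of 2. Exon lengths came from GENCODE M21 (GRCm38); copies were sought with blastn 2.17.0 (95% identity, 100 bp). Alternatives were DESeq2 1.42.0, its size factors, plain totals, no filter, filterByExpr, a prior count of 0.5, a replicate block and each library left out. Scripts were tested on simulated counts. No pair of libraries agreed within sampling noise.

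The 38 genes and the lists were chosen with earlier results of these data known. Named are all 38, Prdm16, other-list genes past an FDR of 0.05, the 6 most abundant of each adipocyte list and up to 3 per other-cell list. Mrap, Lgals12, Otop1, Slc27a2, Zic1, Lhx8, Dbh, Lyz2, Ncam1, Pi16, Serpinf1, Adig, Pnpla3, Esrrg, Bmp8b, Clstn3 and genes sharing sequence were added after their values were seen.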

Additional observations from a re-analysis of the deposited data

How the results depend on the processing

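The median log2 fold change of the tested genes was -1.91 without control 1, where 36 of the 38 genes were tested. When each other library was left out, 32 were tested and it ran from -1.56 to -1.12. The number of calls did not hold. The 17 genes that fell became 3 to 25, the 2 that rose 1 to 2, and the 15 with a fold change over 2 became 3 to 22 in these fits, the lowest counts without iSM KO 2 and the highest without control 1. The calls without control 1 included Lep, Aqp7 and Adrb3, which the main fit did not test. They passed that count filter through controls 2 and 3 alone. Over all genes the 547 that fell became 203 to 638 and the 705 that rose 313 to 764. The 9 further adipocyte genes that fell became 1 to 7, and the 3 brown and beige genes that fell and the 1 that rose became 1 to 4 and 1 to 2. Signs turned only in 4 genes far from the threshold: log2 differences ran from -0.011 (without iSM KO 2) to 0.13 for Plin4, from -0.17 to 0.18 (without control 2) for Dgat1, which was 0.052 without iSM KO 1, from -0.19 to 0.0059 (without control 2) for Pnpla2 and from -0.37 to 0.050 (without control 1) for Dio2. The cause was not tested. Of the log2 differences of the 32 genes, 131 of 192 kept their sign and their side of the threshold when a library was left out, and 170 of 192 under the other settings.

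No pairing of the mice by replicate number was seen: the deviations of same-numbered libraries correlated at -0.13, -0.05 and -0.11. With 3 libraries a group these values cannot exclude a pairing. With the number as a block, 9 genes fell, 1 rose and 9 passed with a fold change over 2, of the further adipocyte genes 3 fell, and over all genes 318 fell and 457 rose; Dgat1 turned to 0.0019. DESeq2 put the brown and beige calls at 5 lower and 2 higher, and no filter at 6 lower and 2 higher. With no filter 24 of the 38 genes fell, 22 passed with a fold change over 2, and 863 of all genes fell. The median control range was 1.44 with filterByExpr, which tested 34 of the 38 genes. With 3 libraries a group, depth limits Elovl3, Lep, Aqp7, Plin5, Cox7a1 and Cox8b most; these had 21 to 132 counts over all libraries.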
